A study of Mus musculus with 51 samples.

Results

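Mouse embryonic fibroblasts (MEFs) transformed with SV40 were compared directly on 6 arrays, 3 of a cell pool that overexpressed (OE) HMGN2 and 3 of a pool that overexpressed HMGN1. They were chosen by their labels from 24 arrays of SV40-transformed MEFs and 51 arrays in the whole series. The study asked how the HMGN variants affect the transcript profile of cells. It measured primary MEFs from knock out and wild-type animals, SV40-transformed MEFs and MIN6 cells on Affymetrix arrays. All SV40 pools derived from the same transformed line. They were infected with retrovirus in the presence of polybrene at 5 µg/ml, selected with puromycin at 1 µg/ml for 7 days and kept for 24 h without it, in medium with 10% serum. The HMGN2 OE pool carried an HMGN2 construct, the HMGN1 OE pool an HMGN1 construct, and the empty vector OE pool, also 3 arrays, the vector without a construct. Infected cells were collected as pools and not as clones, and the submitters state that the amount of HMGN protein was doubled. The other 5 pools of this line, labelled HMGN3a OE, HMGN5 OE, HMGN5SE OE, HMGN1_N2swap and HMGN1_N3swap, entered the fit and are used here only as a range. No label tells if a pool's 3 arrays stem from separate cultures or infections, so the spread between arrays of a pool may be technical. The p-values and standard errors rest on this spread over all 8 pools in the fit, and not over the compared pools alone.

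HMGN proteins are small, abundant chromatin proteins that bind the nucleosome core, with a conserved nucleosome-binding domain, and compete with linker histone H1. HMGN1 and HMGN2 are the most widely expressed members and the most alike in sequence. They are known to loosen compacted chromatin and to occupy enhancers and promoters, and loss of either is known to change transcript levels in a cell type-dependent way. MEFs make collagen-rich matrix and an actin-based contractile apparatus, which SRF, YAP and TGF-beta are known to drive, while Id proteins, direct targets of BMP signalling, hold basic helix-loop-helix (bHLH) factors inactive.

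The values are log2 intensities of probe sets, and a difference is HMGN2 minus HMGN1 on that scale, with its standard error (SE) from limma. The median intensity of the 6 arrays lay between 18.7 and 19.1 on the linear scale. The median SD of a gene over 3 arrays was 0.09 in the HMGN2 pool and 0.07 in the HMGN1 pool. A gene's mean below 3.63, the level of the filter on dim probe sets, was treated as background, and the difference is then given as a bound ("at least"). The number of arrays limits the precision. In such bulk samples, fewer cells that express a gene and less RNA per cell cannot be told apart. The signal of the 3' Actb control minus that of the 5' control, a measure of RNA integrity, was 0.01 to 0.20 in the HMGN2 arrays and 0.20 to 0.34 in the HMGN1 arrays, without overlap, within a range of 0.01 to 0.79 over all 24 arrays. With this measure as a covariate, 5263 genes were called in place of 5536, and 4547 calls were shared in the same direction.

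The Hmgn probe sets did not separate the pools as their labels would. The brightest Hmgn1 probe set read 12.22, 12.35 and 12.20 in the HMGN2 arrays, 12.30, 12.29 and 12.17 in the HMGN1 arrays and 12.19, 12.28 and 12.32 with empty vector. The 3 groups overlapped, and the difference was 0.01 ± 0.07 (adjusted p = 0.961). Another Hmgn1 probe set was 0.18 ± 0.05 higher in the HMGN2 pool than in the HMGN1 pool (adjusted p = 0.00883). A probe set listed for Hmgn2 and 3 further genes read 11.84, 12.18 and 11.99 in the HMGN2 arrays, 11.86, 11.88 and 11.83 in the HMGN1 arrays and 11.86, 11.83 and 11.99 with vector (0.15 ± 0.08, adjusted p = 0.153). A probe set that lies outside an introduced construct does not measure it, and where these lie was not determined here, so the labels are taken as given. Hmgn3 was 0.26 ± 0.08 higher with HMGN2 (adjusted p = 0.0123), and Hmgn5 differed by 0.04 ± 0.08 (adjusted p = 0.773).

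The pools differed at many genes, and the largest differences were genes far above background with HMGN2 and near it with HMGN1. Of 13461 genes tested, 5536 (41.1%) were called at an adjusted p below 0.05. Of all genes tested, 2009 (14.9%) were called higher and 3527 (26.2%) lower with HMGN2. The median difference over all genes was -0.06. Large differences ran mostly upward: 231 genes (1.72%) were called and at least 2-fold higher with HMGN2, and 84 (0.624%) at least 2-fold lower. The 3 against 3 arrays did not overlap for 7198 genes (53.5%), among them 5367 of those called. In 117 called genes the HMGN1 mean was below background and the HMGN2 mean above it, and in 77 the reverse held. Of the 231 genes, 117 had another probe set above the filter, which was called the same way for 111 and the opposite way for 1.

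**Figure D1:**
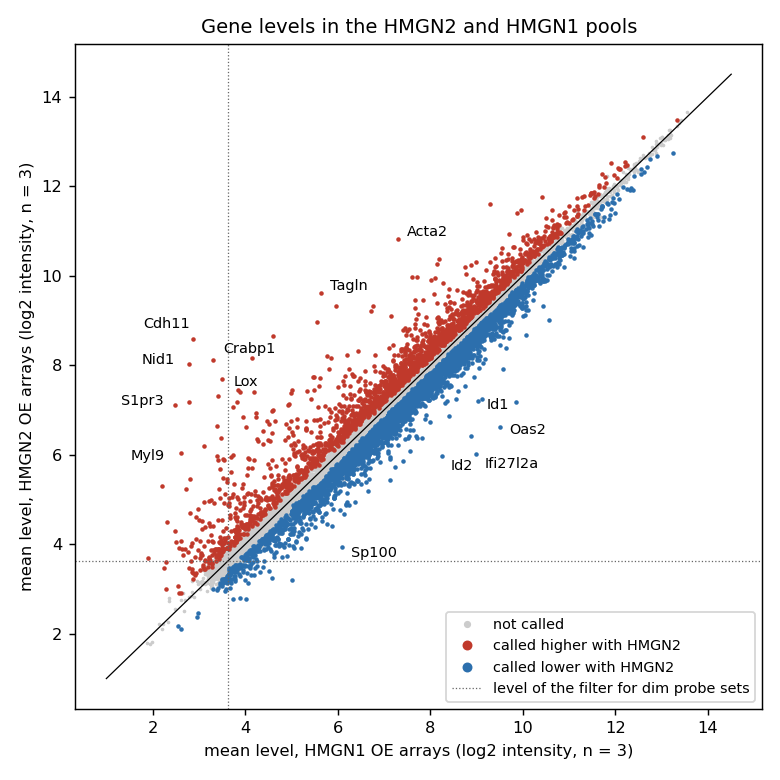
Mean log2 intensity of each of 13461 genes in the 3 HMGN1 OE arrays (x axis) and the 3 HMGN2 OE arrays (y axis). Red and blue dots are genes called higher or lower with HMGN2, grey dots were not called, the diagonal marks equal levels and the dotted lines the filter level of 3.63; the red dots far above the diagonal at the left, such as Cdh11 and Nid1, are near background with HMGN1.

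Cdh11, an adhesion protein of mesenchymal cells, had the largest difference. It read 8.59, 8.53 and 8.65 with HMGN2, 2.62, 3.07 and 2.96 with HMGN1 and 3.66, 3.88 and 3.88 with vector, a difference of at least 4.96 (adjusted p = 2.76e-19). All HMGN2 arrays lay far above both of these other pools, and the means of the other 5 construct pools ran from 3.34 to 7.70. Crabp1, which binds retinoic acid in the cytoplasm, read 8.03, 8.13 and 8.18 with HMGN2 and 3.69, 3.17 and 3.05 with HMGN1, a difference of at least 4.48 (adjusted p = 3.06e-16), and the means of the other 5 construct pools ran from 3.17 to 9.58. The differences were at least 3.48 for S1pr3, a receptor for sphingosine-1-phosphate, at least 3.53 for Cd34, a surface sialomucin, and at least 3.69 for Slc16a3, a lactate exporter. Among the other 5 construct pools the highest mean was 7.16 for S1pr3 and 8.22 for Cd34, above their HMGN2 means of 7.11 and 7.17. For Slc16a3 it was 5.67, below the HMGN2 mean of 7.32. Crip1, a LIM domain protein, was 4.05 ± 0.11 higher, Flrt3, an adhesion protein, 4.02 ± 0.12, and Tubb2b, a beta tubulin, 3.59 ± 0.16. Their highest means in the other 5 construct pools were 7.52, 5.21 and 6.53, below the HMGN2 means of 8.64, 8.17 and 7.45. Among the 12 largest falls, 7 are genes known to be induced by interferon (Ifi27l2a, Oas2, Trim30a, Oas3, Sp100, Lgals3bp and Oas1a), and the rest were Id2, Id1, Snhg14, Sbsn and Malat1. The long noncoding RNA Malat1 read 7.88, 8.03 and 7.83 with HMGN2 and 9.68, 9.51 and 9.52 with HMGN1. Its difference was -1.65 ± 0.31 (adjusted p = 0.000161), and of its 6 other probe sets 2 were called the same way. Sbsn, a secreted epithelial protein, differed by -1.70 ± 0.12, with its 2 other probe sets called the same way.

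Matrix genes were mostly higher with HMGN2. Of 75 genes listed for the extracellular matrix, 63 were tested, 41 were higher, 5 lower and 17 not called, against 14.9% higher and 26.2% lower over all genes. The median difference was 0.52, against -0.06 over all genes. Against empty vector, 43 of the 63 were higher and 3 lower with HMGN2, where 18.8% of all genes were higher and 25.6% lower. With HMGN1, 10 were higher and 10 lower than with vector, where the shares over all genes were 17.4% and 12.1%. Both comparisons use the same vector arrays.

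Fibrillar collagens, the rope-like collagens of connective tissue, were higher in 6 of 7 members (14.9% over all genes), with a median difference of 0.89. Col1a2, a chain of type I collagen, read 11.53, 11.61 and 11.67 with HMGN2, 9.29, 9.20 and 9.35 with HMGN1 and 9.54, 9.31 and 9.28 with vector. The HMGN2 arrays stood apart, while the HMGN1 and vector arrays overlapped, and the difference was 2.32 ± 0.08, or 4.99-fold (adjusted p = 6.79e-16). Col1a1, the partner chain, was 1.53 ± 0.12 higher, although its other probe set was not called. Col3a1 read 9.31, 9.88 and 9.88 with HMGN2, 8.63, 8.43 and 8.67 with HMGN1 and 6.80, 6.55 and 6.73 with vector, so that both construct pools exceeded the vector and HMGN2 exceeded HMGN1 by 1.11 ± 0.12. Col5a1, a collagen that helps start fibrils, was 0.89 ± 0.09 higher. In none of the 6 was the HMGN2 mean the highest among the 8 pools of the line, against 1072 of all 2009 genes called higher. The Col1a2 mean was 11.60 with HMGN2, and the other 5 construct pools ranged from 9.25 to 12.20. Of the other interstitial collagens, 5 of 6 were higher, or 3 without HMGN2 replicate 1, HMGN1 replicate 1 or HMGN1 replicate 3. The type VI chains Col6a2 and Col6a1, which form beaded microfibrils, exceeded HMGN1 by 0.77 ± 0.09 and 0.57 ± 0.07.

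Enzymes and proteins that mature and crosslink collagen were higher in 7 of 11 members and lower in 1 (14.9% and 26.2% over all genes). Lox, the lysyl oxidase that crosslinks collagen and elastin, read 7.29, 7.84 and 7.93 with HMGN2, 3.50, 3.70 and 3.32 with HMGN1 and 3.85, 3.46 and 3.50 with vector. Only the HMGN2 arrays were clearly above background among these 9, and the difference was at least 4.05 (adjusted p = 5.23e-16). The means of the other 5 construct pools ran from 3.59 to 9.29. Its relatives Loxl1 and Loxl3 were 1.30 ± 0.06 and 1.00 ± 0.08 higher, and P4ha2, a prolyl hydroxylase of collagen, 0.70 ± 0.09. Of the elastic fibre genes, 6 of 9 were higher. Fbln5, an elastin-binding fibulin, read 7.05, 7.03 and 7.13 with HMGN2, 4.14, 3.27 and 3.80 with HMGN1 and 4.40, 3.74 and 3.96 with vector, a difference of 3.33 ± 0.18. Its HMGN2 arrays lay above all 6 of these HMGN1 and vector arrays, and the means of the other 5 construct pools ran from 4.10 to 7.47, around the HMGN2 mean of 7.07. Fbln2 was 2.60 ± 0.11 higher, Efemp1 1.00 ± 0.09 and the microfibril protein Emilin1 0.98 ± 0.15.

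Each of the 11 tested adhesive and matricellular genes was higher with HMGN2, where 14.9% of all genes were. The median was 1.35, or 1.29 with levels below the filter set to it. Thbs1, thrombospondin 1, read 9.16, 9.19 and 9.30 with HMGN2, 6.74, 6.75 and 6.66 with HMGN1 and 6.59, 6.31 and 6.58 with vector. The HMGN1 arrays were close to vector and the HMGN2 arrays 2.50 ± 0.18 above HMGN1 (5.66-fold, adjusted p = 5.29e-10). Tnc, tenascin C, read 8.08, 8.22 and 8.30 against 5.82, 5.80 and 5.68, with 6.28, 6.24 and 6.12 with vector. Here HMGN1 differed from vector by -0.45 and HMGN2 by 1.99, both called, and the direct difference was 2.44 ± 0.07. Ccn5 was 1.81 ± 0.12 higher. Among proteoglycans 3 of 6 were higher: Ogn by 2.09 ± 0.11, Vcan by 0.65 ± 0.14 and Bgn by 0.39 ± 0.06.

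Basement membrane genes did not share one direction: 3 of 13 were higher and 4 lower (14.9% and 26.2% over all genes), with a median of 0.08. Nid1, nidogen 1, which links laminin to type IV collagen, read 8.02, 8.12 and 7.95 with HMGN2, 2.74, 2.57 and 3.04 with HMGN1 and 4.67, 4.59 and 4.50 with vector. The pools did not overlap, HMGN1 was at background, and the difference was at least 4.40 (adjusted p = 2.44e-18). The means of the other 5 construct pools ran from 3.94 to 10.08. Nid2 was 1.22 ± 0.20 higher. Agrn, agrin, was lower with HMGN2, at 7.82, 8.21 and 8.35 against 8.94, 8.97 and 9.14 (-0.89 ± 0.09), with vector at 8.28, 8.18 and 8.24, so the HMGN1 arrays were the high ones. The laminin chain Lama5 was -0.60 ± 0.10, and there HMGN2 lay below the vector mean of 8.20, which HMGN1 did not leave beyond the threshold (-0.08, adjusted p = 0.58).

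Of 22 tested matrix proteases, inhibitors and receptors, 12 were higher and 3 lower (14.9% and 26.2% over all genes), with a median of 0.24. The aggrecan-cleaving protease genes Adamts1 and Adamts5 were 2.32 ± 0.11 and 1.84 ± 0.15 higher. Plat, tissue plasminogen activator, was 1.28 ± 0.09 higher. Timp3, an inhibitor of matrix proteases, read 6.10, 6.02 and 6.44 with HMGN2, 3.16, 2.88 and 3.29 with HMGN1 and 4.48, 4.55 and 4.16 with vector. The difference was at least 2.55, its 3 other probe sets were called the same way, and HMGN1 was the lowest of these groups.

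**Figure D2:**
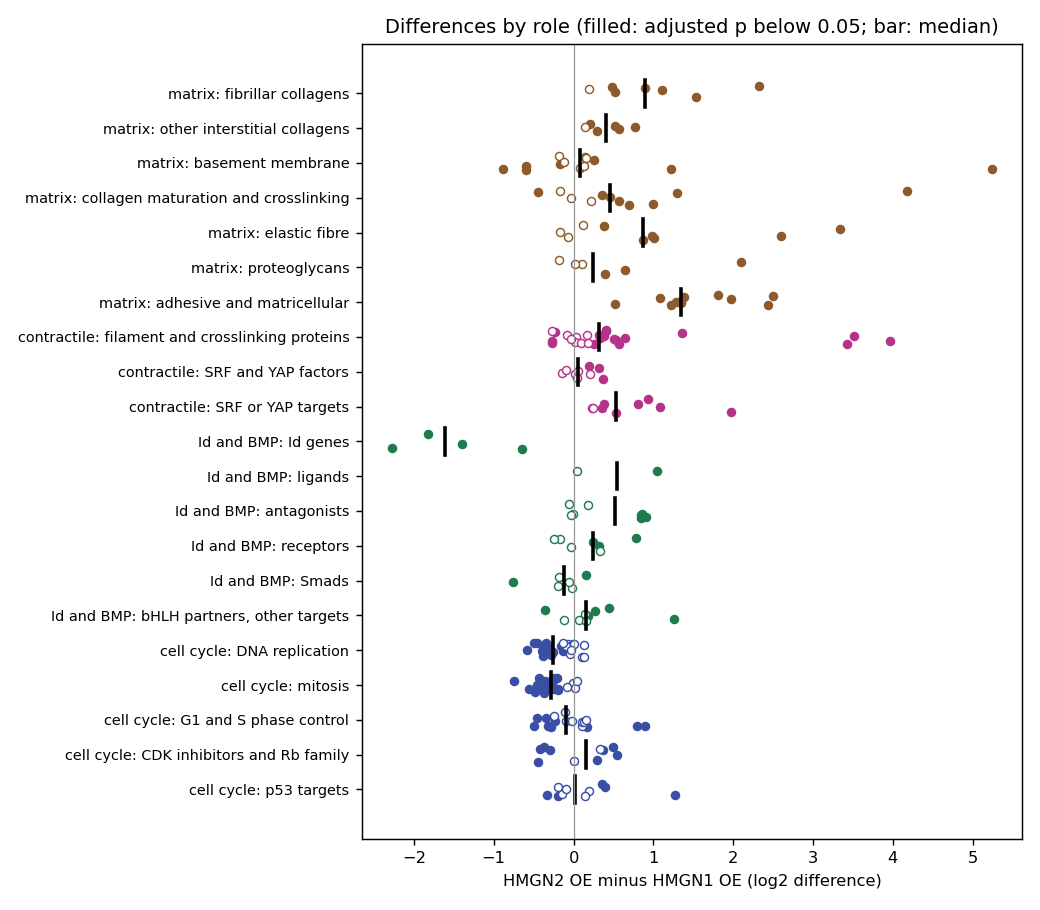
Log2 difference, HMGN2 OE minus HMGN1 OE, of each tested member of the matrix, contractile, Id and BMP, and cell cycle lists, by role; filled dots have an adjusted p below 0.05, hollow dots do not, and vertical bars are medians. Adhesive and matricellular genes all lie to the right of 0, all 4 Id genes to the left, and mitosis genes within 1 unit of 0, most of them to the left; differences of genes at background in 1 pool are plotted as measured.

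Contractile genes were higher with HMGN2 in 24 of 43 tested members (of 45 listed) and lower in 3, against 14.9% and 26.2% over all genes, with a median of 0.32. The count of 3 fell to 1 without HMGN1 replicate 2 or 3 or HMGN2 replicate 3 and to 0 without HMGN2 replicate 2. With levels below the filter set to it, the median was 0.26. Against vector, 22 were higher and 5 lower with HMGN2, where 18.8% and 25.6% of all genes were. With HMGN1, 1 was higher and 12 lower, where 17.4% and 12.1% of all genes were. Among the 24 genes higher with HMGN2, the HMGN1 mean was the lowest of the 8 pools for 17, and the HMGN2 mean the highest for 11. Over all 2009 genes called higher these counts were 725 and 1072. The list's largest differences were those of an actin-binding protein (Tagln), a smooth muscle actin (Acta2) and a myosin light chain (Myl9).

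Acta2, smooth muscle alpha actin, read 10.85, 10.72 and 10.87 with HMGN2, 7.31, 7.41 and 7.19 with HMGN1 and 8.11, 8.15 and 7.94 with vector. The 3 groups did not overlap, and the difference was 3.51 ± 0.10, or 11.4-fold (adjusted p = 3.57e-17). Tagln, the actin-binding protein transgelin, read 9.72, 9.47 and 9.63 with HMGN2, 5.46, 5.86 and 5.60 with HMGN1 and 7.59, 7.60 and 7.50 with vector. The vector lay between both pools: HMGN2 differed from it by 2.05 and HMGN1 by -1.92, both called, and the direct difference was 3.97 ± 0.08, or 15.6-fold (adjusted p = 2.17e-19). Myl9, a regulatory myosin light chain, read 6.06, 5.97 and 6.10 with HMGN2, 2.50, 2.79 and 2.55 with HMGN1 and 2.77, 3.00 and 2.85 with vector. Both other pools were at background, and the difference was at least 2.41 (adjusted p = 4.54e-14). Tpm1, a tropomyosin, was 1.36 ± 0.08 higher, with its 2 other probe sets called the same way. The means of the other 5 construct pools ran from 7.94 to 11.64 for Acta2, around its HMGN2 mean of 10.81, and from 7.49 to 9.04 for Tagln, below its HMGN2 mean of 9.61 and above its HMGN1 mean of 5.64.

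Of 9 tested targets of SRF or YAP, 7 were higher and none lower (14.9% and 26.2% over all genes), with a median of 0.53. Ccn2, connective tissue growth factor, is also counted among the adhesive and matricellular genes of the matrix list. Ccn2 read 9.16, 9.09 and 9.08 with HMGN2, 7.19, 7.30 and 6.94 with HMGN1 and 8.07, 8.09 and 8.12 with vector. It differed from vector by 1.02 with HMGN2 and by -0.95 with HMGN1, and the direct difference was 1.97 ± 0.09 (adjusted p = 1.72e-13). Its relative Ccn1 was 1.08 ± 0.07 higher, although of its 3 other probe sets 1 was called the same way and 1 the opposite way. Ankrd1, a cardiac ankyrin repeat protein, was 0.93 ± 0.12 higher, and Cav1, caveolin 1, 0.81 ± 0.06. Of the 9 tested genes of the factors themselves 3 were higher, with a median of 0.05 over their brightest probe sets. Other probe sets differed more for 3 factors not called: 0.78 ± 0.12 for Yap1 (adjusted p = 4.56e-05), 0.46 ± 0.12 for Mrtfb (adjusted p = 0.0053) and -0.46 ± 0.12 for Tead4 (adjusted p = 0.00415). Tead1, a DNA-binding partner of YAP, was 0.37 ± 0.07 higher and Wwtr1, the YAP relative TAZ, 0.32 ± 0.06, in each case with no other probe set called. With the mean of its probe sets Wwtr1 was 0.22 higher and lost its call (adjusted p = 0.0566). Srf was 0.19 ± 0.06 higher (adjusted p = 0.0189), a call lost without HMGN2 replicate 1 (0.12, adjusted p = 0.143), without HMGN1 replicate 1 (0.17, adjusted p = 0.0667) and with only the 6 compared arrays in the fit (0.19, adjusted p = 0.0667).

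Promoter sequences are shown for 4 contractile members called higher, because SRF is known to bind the CArG box and the TEAD partners of YAP the motif CATTCC. Each is the 250 bases before the gene's start in the RefSeq sequences of build GRCm38.p6, written 5' to 3' on the gene's strand, with the match on either strand in capitals. They lie at chr19:34255374-34255623 on the minus strand (Acta2), chr10:79988350-79988599 on the plus strand (Cnn2, a calponin), chr2:156775214-156775463 on the plus strand (Myl9) and chr17:46556163-46556412 on the minus strand (Srf). The capitals mark CATTCC read on the opposite strand in Acta2 and CArG boxes in the rest, with a pair of them in Srf. Only the strict form of the CArG box was sought: CC, 6 bases of A or T, then GG. Forms with another base inside were neither marked nor counted, such as ccctatatgg and ccttgtttgg in Acta2.
Acta2: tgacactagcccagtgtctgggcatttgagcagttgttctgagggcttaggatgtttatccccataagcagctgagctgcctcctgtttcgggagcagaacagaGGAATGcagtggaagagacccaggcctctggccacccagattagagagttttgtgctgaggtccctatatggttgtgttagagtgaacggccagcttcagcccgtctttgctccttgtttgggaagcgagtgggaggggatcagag
Cnn2: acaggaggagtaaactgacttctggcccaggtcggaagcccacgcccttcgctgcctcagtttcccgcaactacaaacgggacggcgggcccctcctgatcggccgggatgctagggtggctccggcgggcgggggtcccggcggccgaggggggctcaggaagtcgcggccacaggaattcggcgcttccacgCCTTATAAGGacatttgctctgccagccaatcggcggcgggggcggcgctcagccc
Myl9: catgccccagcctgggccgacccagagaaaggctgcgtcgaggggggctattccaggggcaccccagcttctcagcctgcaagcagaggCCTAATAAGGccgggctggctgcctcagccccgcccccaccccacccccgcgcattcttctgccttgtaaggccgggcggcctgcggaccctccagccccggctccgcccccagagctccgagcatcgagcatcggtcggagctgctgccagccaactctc
Srf: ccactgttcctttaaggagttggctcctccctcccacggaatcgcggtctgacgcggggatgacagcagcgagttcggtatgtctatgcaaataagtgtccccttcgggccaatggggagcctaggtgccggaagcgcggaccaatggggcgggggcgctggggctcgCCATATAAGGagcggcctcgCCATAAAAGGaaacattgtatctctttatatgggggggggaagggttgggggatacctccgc
Matching by symbol gave promoters for 37 of the 43 tested members, 48 promoters in all. Matches were counted in the 250 bases before each start. A CArG box stood in 7 of these 48 (14.6%), against 163 of 13811 promoters of tested genes (1.18%). It stood in 6 of 23 promoters of members called higher, from 5 genes (Cnn2, Fhl2, Myl9, Srf and Vcl), and in 1 of 25 promoters of members not called higher. CATTCC, on either strand, stood in 21 of 48 (43.8%), against 10.8% of promoters of tested genes. Its shares were 47.8% in members called higher and 40% in those not called higher. CATTCC cannot lie wholly within a CArG box. The list was built in part from SRF and YAP factors and targets, with earlier results of these data known. Its shares beside those of all promoters are therefore no test of these factors, and the split by call was not tested. These matches are letters in a window and were not tested for binding. The promoters of Tagln and Ccn2 were not used here.

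**Figure D3:**
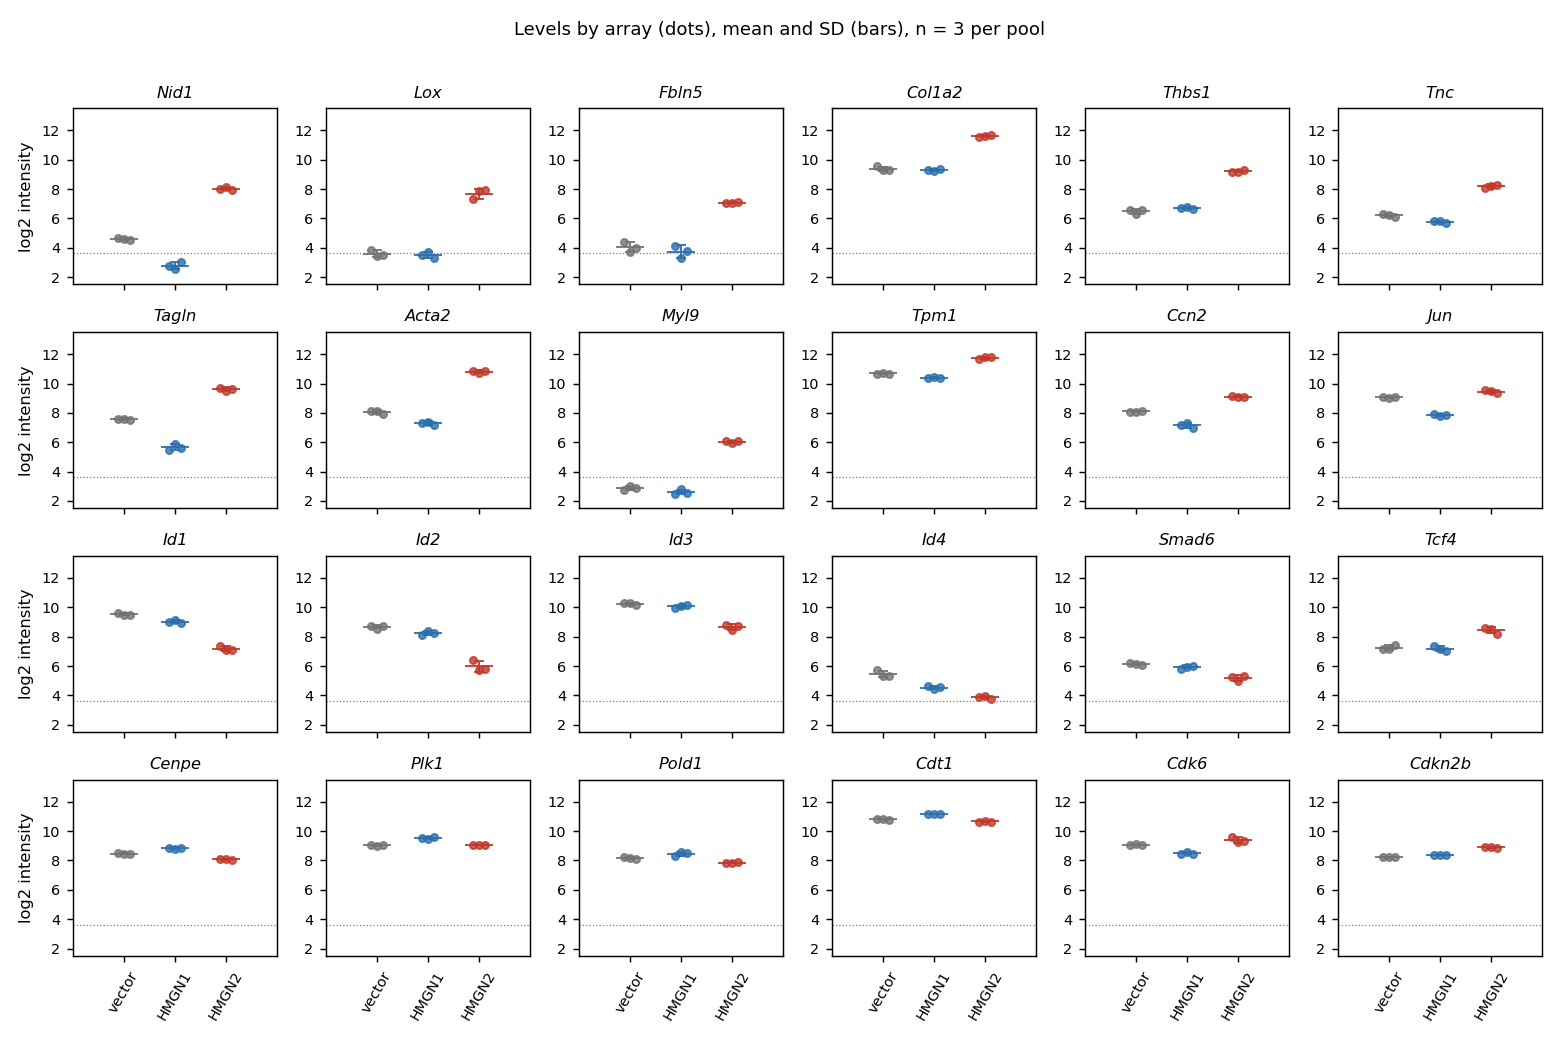
Log2 intensity of 24 genes in the empty vector, HMGN1 OE and HMGN2 OE arrays: dots are arrays (n = 3 per pool), bars mean and SD, and the dotted line is the filter level of 3.63. Rows are matrix, contractile with AP-1, Id and BMP, and cell cycle genes; Tagln, Acta2, Ccn2 and Jun lie below vector with HMGN1 and above it with HMGN2, the Id genes are lowest with HMGN2, and Plk1 and Cdt1 are highest with HMGN1.

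TGF-beta is a ligand family known to raise matrix and contractile genes in fibroblasts. Of its 9 tested pathway genes, 7 were higher with HMGN2 and 1 lower (14.9% and 26.2% over all genes), with a median of 0.57. The ligand Tgfb3 read 6.45, 6.59 and 6.50 with HMGN2 and 5.51, 5.67 and 5.67 with HMGN1 (0.90 ± 0.12). Tgfb2, another ligand, was 0.85 ± 0.13 higher, and there HMGN1 differed from vector by -0.77 and HMGN2 by 0.08 (adjusted p = 0.65). The receptor Tgfbr2 read 9.09, 9.29 and 9.27 against 8.36, 8.36 and 8.35 (0.86 ± 0.06), with vector at 8.43, 8.36 and 8.38. Of these 9 arrays the HMGN2 ones were the high ones, and the means of the other 5 construct pools ran from 8.18 to 9.05. The signal transducer Smad3 was 0.81 ± 0.08 higher, with its 2 other probe sets called the same way. Without HMGN2 replicate 1, 5 of the 9 were higher.

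The Id genes ran the other way. All 4 were lower with HMGN2, where 26.2% of all genes were, with a median of -1.62. For all 4 the HMGN2 mean was the lowest of the 8 pools of this line, against 1805 of all 3527 genes called lower. Id proteins lack a DNA-binding domain and are known to sequester bHLH factors. Id1 read 7.38, 7.08 and 7.12 with HMGN2, 8.98, 9.13 and 8.95 with HMGN1 and 9.62, 9.50 and 9.48 with vector (-1.83 ± 0.10, 3.55-fold, adjusted p = 4.32e-12). Id2 read 6.38, 5.73 and 5.81 with HMGN2, 8.12, 8.40 and 8.23 with HMGN1 and 8.72, 8.55 and 8.74 with vector (-2.27 ± 0.12, 4.84-fold, adjusted p = 3.4e-12). In both genes the groups did not overlap, and both construct pools were below vector. The differences from vector were -0.51 and -0.42 with HMGN1 and -2.34 and -2.70 with HMGN2. Id3 read 8.82, 8.46 and 8.72 with HMGN2, 9.95, 10.11 and 10.14 with HMGN1 and 10.28, 10.26 and 10.18 with vector (-1.40 ± 0.09, adjusted p = 1.12e-10). HMGN1 did not pass the threshold against vector for Id3 (-0.17, adjusted p = 0.18). Id4 was nearer to background, at 3.91, 3.96 and 3.78 with HMGN2, 4.64, 4.42 and 4.54 with HMGN1 and 5.73, 5.30 and 5.34 with vector (-0.65 ± 0.14, adjusted p = 0.000616), and of its 2 other probe sets 1 was called the same way. The other 5 construct pools had Id2 means of 8.30 to 9.26 and Id3 means of 10.10 to 10.67, against 5.97 and 8.66 with HMGN2.

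Over the 36 tested genes of the Id and BMP list, of 44 listed, 13 were higher and 6 lower, with a median of 0.06. The shares over all genes were 14.9% and 26.2%. The ligand Bmp4, which is known to induce Id genes, read 4.93, 4.70 and 5.16 with HMGN2, 3.73, 3.73 and 4.21 with HMGN1 and 3.82, 3.55 and 3.79 with vector (1.04 ± 0.12). Its HMGN2 arrays lay above both other groups. Of 8 antagonists 4 were higher and none lower. The secreted antagonist Grem1 was 0.90 ± 0.10 higher, the decoy receptor Bambi 0.84 ± 0.16, Fstl1 0.84 ± 0.08 and Nog, noggin, at least 0.33 (adjusted p = 0.000111). Of 7 receptors 3 were higher, with Acvr1 at 0.79 ± 0.08 and Bmpr1a at 0.24 ± 0.07. Smad6, an inhibitory Smad that BMP is known to induce, read 5.27, 4.96 and 5.31 with HMGN2, 5.83, 5.95 and 6.03 with HMGN1 and 6.18, 6.17 and 6.08 with vector (-0.76 ± 0.11), so it was lower with HMGN2 as the Id genes were. Among the 9 bHLH partners and other targets, 4 were higher and 1 lower, with 2 higher without HMGN2 replicate 2 or 3 or without the filter. Tcf4, an E protein that Id proteins bind, read 8.58, 8.54 and 8.21 with HMGN2 against 7.35, 7.17 and 7.03 with HMGN1 (1.26 ± 0.12), with 4 of its 5 other probe sets called the same way. Hes1, a Notch target, was 0.45 ± 0.08 higher, and Twist2, a mesenchymal bHLH factor, was lower (-0.36 ± 0.06).

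Cell cycle genes were lower with HMGN2 in 48 of 89 tested members (of 93 listed) and higher in 10, with a median of -0.20, against 26.2% lower and 14.9% higher over all genes. The differences were small, and in the mitosis group they came with a rise over vector in the HMGN1 pool. Against vector, 43 of the 89 were higher and 4 lower with HMGN1, where 17.4% and 12.1% of all genes were. With HMGN2, 23 were higher and 20 lower, where 18.8% and 25.6% of all genes were. For 30 of the 48 genes lower with HMGN2, the HMGN1 mean was the highest of the 8 pools, and for 16 the HMGN2 mean was the lowest. Over all 3527 genes called lower, these counts were 1522 and 1805.

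Of 23 mitosis genes, 19 were lower and none higher (26.2% and 14.9% over all genes), with a median of -0.29. Cenpe, a kinetochore motor, read 8.11, 8.07 and 8.04 with HMGN2, 8.88, 8.75 and 8.84 with HMGN1 and 8.51, 8.44 and 8.45 with vector. The 3 groups did not overlap, HMGN2 below and HMGN1 above vector, and the difference was -0.75 ± 0.06, or 1.68-fold (adjusted p = 6.22e-09). Plk1, a mitotic kinase, read 9.08, 9.06 and 9.06 with HMGN2, 9.52, 9.44 and 9.62 with HMGN1 and 9.04, 8.97 and 9.06 with vector. The HMGN2 and vector arrays lay together, and the HMGN1 arrays were the high ones (-0.46 ± 0.06, adjusted p = 5.68e-06). The other 5 construct pools had Plk1 means of 8.81 to 9.09. Cenpf, a kinetochore protein, differed by -0.56 ± 0.09, and Prc1, which bundles spindle microtubules, by -0.48 ± 0.06. In 17 of the 19 genes the HMGN1 mean was the highest of the 8 pools, against 1522 of all 3527 genes called lower.

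Of 29 DNA replication genes, 17 were lower and none higher by their brightest probe sets (26.2% and 14.9% over all genes). Their median was -0.25. Up to 2 were higher under the alternatives that keep all 6 arrays. Other probe sets were called in either direction, for example higher for Mcm10 (0.52 ± 0.16, adjusted p = 0.0163) and lower for Prim1 (-0.45 ± 0.09, adjusted p = 0.000532). Pold1, the catalytic subunit of polymerase delta, read 7.84, 7.85 and 7.89 with HMGN2, 8.30, 8.56 and 8.48 with HMGN1 and 8.22, 8.20 and 8.09 with vector (-0.58 ± 0.11, adjusted p = 0.000185), with its other probe set not called. The replication licensing factor Cdt1 read 10.63, 10.72 and 10.65 against 11.14, 11.16 and 11.18, with 10.82, 10.83 and 10.79 with vector. It lay 0.35 above vector with HMGN1, which was called, and -0.15 from vector with HMGN2, which was not (adjusted p = 0.055). The direct difference was -0.49 ± 0.06. Cdc45, a part of the replicative helicase, differed by -0.46 ± 0.07 and Tk1, thymidine kinase, by -0.40 ± 0.07. Without HMGN2 replicate 1, 14 replication and 15 mitosis genes were lower.

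Regulators of G1 and S phase were mixed, with 3 of 17 higher and 6 lower (5 higher with the Actb covariate). The shares over all genes, to set beside each count of this paragraph, were 14.9% higher and 26.2% lower. The G1 kinase Cdk6 read 9.61, 9.29 and 9.30 with HMGN2, 8.47, 8.60 and 8.47 with HMGN1 and 9.08, 9.11 and 9.07 with vector (0.89 ± 0.09), so HMGN1 was below and HMGN2 above vector. Myc, a growth-promoting transcription factor, was 0.80 ± 0.09 higher with HMGN2. Skp2, a ubiquitin ligase subunit that targets p27, was lower (-0.46 ± 0.09). Mycn was lower in its brightest probe set (-0.50 ± 0.06), while 1 of its 2 other probe sets was called the opposite way. Of 10 CDK inhibitors and Rb family genes 4 were higher and 4 lower. Cdkn2b, p15, read 8.90, 8.94 and 8.86 with HMGN2 and 8.35, 8.36 and 8.37 with HMGN1 (0.54 ± 0.05), and Cdkn2c, p18, was 0.50 ± 0.07 higher. Cdkn1a, p21, was lower (-0.45 ± 0.09) with its other probe set not called, in cells in which SV40 large T antigen is known to bind p53 and Rb. Cdkn2a was lower by the same test (-0.43 ± 0.15, adjusted p = 0.0289). That call was lost without HMGN1 replicate 2 (adjusted p = 0.056), HMGN1 replicate 3 (adjusted p = 0.146) or HMGN2 replicate 3 (adjusted p = 0.182). Of 10 p53 targets, 3 were higher and 2 lower, with 1 lower without HMGN1 replicate 1 or HMGN2 replicate 1. Among them Pmaip1, a pro-apoptotic BH3-only protein, was at least 0.71 higher, Bbc3, another, 0.40 ± 0.07 higher and Sesn2, a stress-induced gene, lower (-0.34 ± 0.07).

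Interferon-induced genes were above vector in both pools and, for the most part, further above it with HMGN1. All 27 tested genes of 32 listed were higher than vector with either construct, with median differences of 2.59 with HMGN2 and 2.91 with HMGN1. Of all genes, 18.8% were higher than vector with HMGN2 and 17.4% with HMGN1. In the direct comparison 15 of the 27 were lower with HMGN2 and 4 higher, with a median of -0.35. The shares over all genes were 26.2% and 14.9%. Oas2, which makes the second messenger that activates RNase L, read 6.21, 7.01 and 6.62 with HMGN2, 9.47, 9.38 and 9.66 with HMGN1 and 5.63, 5.56 and 5.60 with vector. The groups did not overlap, and the difference was -2.89 ± 0.13, or 7.39-fold (adjusted p = 6.91e-14). The other 5 construct pools had Oas2 means of 5.33 to 5.65. Oas3 read 6.04, 7.04 and 6.18 against 8.94, 8.70 and 9.02 (-2.47 ± 0.18), Oas1a 8.75, 9.21 and 9.06 against 10.63, 10.46 and 10.62 (-1.56 ± 0.10). Irf7, the factor that amplifies the type I interferon response, read 8.01, 8.69 and 8.46 with HMGN2, 9.61, 9.54 and 9.77 with HMGN1 and 5.10, 5.05 and 4.78 with vector (-1.25 ± 0.14). Outside the list, Ifi27l2a differed by -2.97 ± 0.17, Trim30a by -2.66 ± 0.17, Sp100, a nuclear body protein, by -2.14 ± 0.17 and Lgals3bp, a secreted glycoprotein, by -1.87 ± 0.14. In Oas2, Oas3, Oas1a and Irf7, HMGN2 replicate 1 was the lowest of its pool. Without it, 10 of the 27 were lower and 7 higher. Other members, chosen after their values were seen, differed less or the other way. Usp18, an inhibitor of interferon signalling, differed by -1.11, Ifit1 and Ifih1 by 0.06 and 0.04, which were not called, and Ifit3 and Gbp2 were 0.66 and 0.65 higher.

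**Figure D4:**
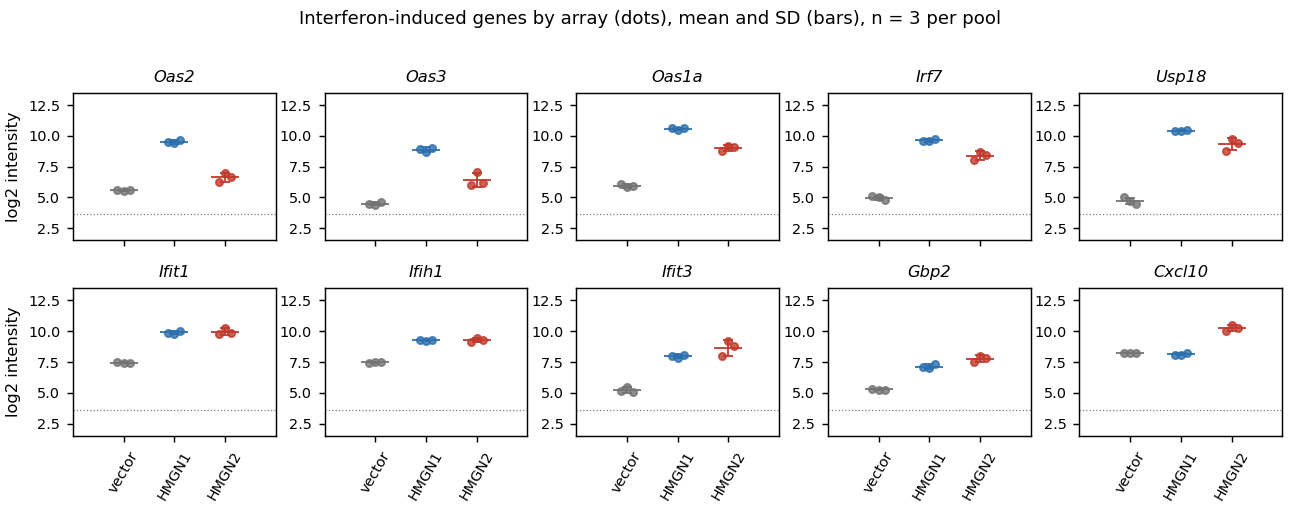
Log2 intensity of 10 interferon-induced genes in the empty vector, HMGN1 OE and HMGN2 OE arrays: dots are arrays (n = 3 per pool), bars mean and SD, and the dotted line is the filter level of 3.63. The upper row is further above vector with HMGN1, the pools overlap for Ifit1 and Ifih1, and Cxcl10 is above vector only in the HMGN2 arrays of these 3 pools.

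Chemokine and NF-kB genes did not follow the interferon list: 11 of 14 tested were higher with HMGN2 and none lower, with a median of 0.79. The shares over all genes were 14.9% and 26.2%. Cxcl10, a chemokine that interferon is known to induce, read 10.06, 10.51 and 10.22 with HMGN2, 8.07, 8.10 and 8.23 with HMGN1 and 8.21, 8.27 and 8.24 with vector (2.13 ± 0.08, adjusted p = 7.07e-15). HMGN1 and vector overlapped. Ccl2, which attracts monocytes, read 9.74, 9.97 and 9.98 against 7.94, 8.06 and 8.05 (1.88 ± 0.08). Cxcl12, the ligand of CXCR4, was 2.26 ± 0.09 higher, with 1 of its 2 other probe sets called the same way. Ptgs2, cyclooxygenase 2, read 7.51, 7.33 and 7.48 with HMGN2, 5.02, 5.18 and 4.84 with HMGN1 and 6.61, 6.37 and 6.55 with vector (2.42 ± 0.10), with vector between both pools. Against vector, 8 of the 14 were higher and 1 lower with HMGN2, and 1 was higher and 6 lower with HMGN1. Of all genes, 18.8% were higher and 25.6% lower with HMGN2, and 17.4% and 12.1% with HMGN1.

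The immediate early genes, which growth factors and stress are known to induce within minutes, were higher in 11 of 13 members and lower in 1. The shares over all genes were 14.9% and 26.2%. The count of 1 fell to 0 without HMGN1 replicate 3 or any HMGN2 replicate, and the median was 0.38. Jun, a subunit of AP-1, read 9.53, 9.47 and 9.36 with HMGN2, 7.91, 7.80 and 7.82 with HMGN1 and 9.06, 9.03 and 9.07 with vector. The difference was 1.61 ± 0.12 (adjusted p = 4.75e-10), of which the larger share lay on the HMGN1 side: HMGN1 differed from vector by -1.21 and HMGN2 by 0.40. The means of the other 5 construct pools were 9.03 to 9.60. Dusp1, a MAP kinase phosphatase, was 1.35 ± 0.08 higher, Fosl2, an AP-1 subunit, 1.29 ± 0.08, and Egr2, a zinc finger factor, at least 0.77. Against vector, none of the 13 was higher and 7 were lower with HMGN1, and 8 were higher and 2 lower with HMGN2. Of all genes, 17.4% were higher and 12.1% lower with HMGN1, and 18.8% and 25.6% with HMGN2.

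Genes of cholesterol synthesis were higher with HMGN2 in 16 of 20 tested members and lower in none, with a median of 0.36. The shares over all genes were 14.9% and 26.2%. Both pools lay above vector, with 20 members called with HMGN2 and 19 with HMGN1, where 18.8% and 17.4% of all genes were higher. Cyp51, the lanosterol demethylase, read 8.87, 8.89 and 9.01 with HMGN2, 7.88, 7.78 and 7.94 with HMGN1 and 6.73, 6.82 and 6.90 with vector (1.05 ± 0.08). The 3 groups formed steps of similar size. Hmgcs1, which makes HMG-CoA, was 0.87 ± 0.07 higher, Insig1, a regulator of the pathway, 0.83 ± 0.12, and Sc5d, a sterol desaturase, 0.81 ± 0.08. Of 21 hypoxia and glycolysis genes, 7 were higher and 1 lower (14.9% and 26.2% over all genes), with a median of 0.08. The count of 1 fell to 0 without HMGN1 replicate 3 or HMGN2 replicate 1. Adm, the vasodilator adrenomedullin, was 1.92 ± 0.09 higher and Egln3, an oxygen-sensing prolyl hydroxylase, 0.79 ± 0.11.

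Hox genes record the position of a cell along the body axis. They were lower with HMGN2 in 10 of 20 tested members and higher in none, with a median of -0.22. The shares over all genes, to set beside each count of this paragraph, were 26.2% lower and 14.9% higher. Hoxb6 read 3.82, 4.03 and 3.90 with HMGN2, 5.20, 5.14 and 5.28 with HMGN1 and 4.68, 4.53 and 4.53 with vector (-1.29 ± 0.10). Hoxc4 read 4.97, 4.69 and 4.73 with HMGN2, 6.06, 5.78 and 5.83 with HMGN1 and 5.26, 5.31 and 5.25 with vector (-1.10 ± 0.09). In both, vector lay between the pools. Hoxb9 differed by -0.78 ± 0.07 and Hoxb2 by -0.82 ± 0.13. Of 10 imprinted genes, 3 were higher and 2 lower, with 1 lower when any replicate other than HMGN2 replicate 3 was left out. Grb10, an adaptor that restrains growth, read 10.10, 9.91 and 9.88 with HMGN2, 7.67, 7.59 and 7.54 with HMGN1 and 9.11, 8.97 and 9.11 with vector (2.36 ± 0.08, adjusted p = 2.53e-16), again with vector between. Plagl1, a zinc finger factor, was at least 1.83 higher, with its other probe set not called. Of 14 Wnt receptors and secreted inhibitors 6 were higher and 4 lower, against 14.9% and 26.2% over all genes, and 3 were higher with the Actb covariate. Dkk3, a secreted Dickkopf family protein, was at least 2.73 higher and the coreceptor Lrp5 lower (-0.93 ± 0.20). Of 9 tubulins 5 were higher and 2 lower. Tuba1a was 0.56 ± 0.06 higher and Tuba4a lower (-0.73 ± 0.08). Of 7 cadherins 2 were higher (1 without HMGN2 replicate 1) and 1 lower, the last being Cdh13 (-0.55 ± 0.06). Of 9 genes of retinoic acid handling, 3 were higher and none lower. Crabp2, a relative of Crabp1, was at least 0.74 higher.

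Fibroblast markers were higher with HMGN2 in 8 of 10 tested members (of 12 listed) and lower in 1, with a median of 1.75. The shares over all genes were 14.9% and 26.2%. This list shares Col1a1, Fbln2 and Cd34 with results above. The member called lower was S100a4 (-0.25), with means of 12.43 with HMGN2 and 12.68 with HMGN1. The summed linear intensity of the 12 markers was 17992 to 18981 with HMGN2, 13884 to 14259 with HMGN1 and 13277 to 13576 with vector. Most of this sum came from the brightest markers, Vim, S100a4 and Col1a1. Thy1, a surface glycoprotein of fibroblasts, read 6.53, 6.91 and 6.51 with HMGN2, 3.59, 3.09 and 3.49 with HMGN1 and 3.94, 3.99 and 3.91 with vector (at least 3.02, adjusted p = 7.7e-15). Prrx1, a mesenchymal homeobox factor, read 8.22, 8.20 and 8.30 against 6.26, 6.14 and 6.21 (2.03 ± 0.08), with its 4 other probe sets called the same way. In both genes the HMGN2 arrays did not overlap those of HMGN1 or vector, where Prrx1 had a mean of 6.77. The means of the other 5 construct pools ran from 3.53 to 5.92 for Thy1 and from 6.73 to 8.06 for Prrx1. Vim, vimentin, had means of 13.09 and 12.59, far above the filter level in both pools, while Pdgfra lay below the filter level in both (3.53 and 3.20), as did Fap and Dpt.

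Markers of other cell types moved with the comparison in part, where 14.9% of all genes were higher and 26.2% lower. Of 3 tested smooth muscle and pericyte markers 2 were higher, with summed intensities over the 8 listed of 163 to 189 with HMGN2, 95.1 to 107 with HMGN1 and 120 to 131 with vector. These were Mcam (2.08 ± 0.16) and Cspg4 (1.01 ± 0.10), while Myh11 (2.56 and 2.46) and Myocd (3.09 and 3.14), which define smooth muscle, were below the filter level in both pools. Of 6 neural markers 2 were higher, among them the intermediate filament gene Nes (0.99 ± 0.08). The sums were 293 to 312 with HMGN2, 195 to 220 with HMGN1 and 218 to 247 with vector. The other neural marker called, Map2, lost its call without HMGN1 replicate 2 or 3 or HMGN2 replicate 2 or 3. It also lost it with the replicate block (adjusted p = 0.0561), no filter, quantile normalization again, the Actb covariate or the mean of probe sets. Of 5 cartilage and bone markers 2 were higher. The sums were 141 to 156 with HMGN2, 115 to 120 with HMGN1 and 145 to 153 with vector. Among the 2 was Sox9 (0.74 ± 0.08), which differed from vector by -0.64 with HMGN1 and by 0.10 with HMGN2 (adjusted p = 0.33). The other, Col2a1, lost its call when any replicate other than HMGN2 replicate 3 was left out, and without the filter (adjusted p = 0.0506). Their part in the contractile and matrix results was not tested. The sums overlapped for macrophage and leukocyte markers (223 to 251 and 236 to 240), for epithelial markers (182 to 200 and 189 to 206) and for endothelial markers (57.6 to 60.2 and 53.3 to 61.4). Ptprc, Pecam1 and Cdh1, which define those types, were below the filter level in both pools. None of 8 tested macrophage markers was called, 1 of 7 epithelial markers was lower, a call lost without HMGN1 replicate 1 or 2 or HMGN2 replicate 2 or 3, and the endothelial marker tested was not called. None of 4 skeletal muscle markers was called, and 1 of 3 adipocyte markers was higher.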

How the data were processed

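RNA was measured on Affymetrix mouse arrays, 1 sample per array. Per the submitters' processing notes the authors used RMA, of unstated version and settings, and the deposited intensities are on a linear scale. The log2 of each deposited intensity was taken, with no further normalization. Of 45101 probe sets, 34945 carried 1 gene symbol, 932 several and 9160 none, and 64 were array controls. Symbols came from the platform annotation, brought up to date through a table of RefSeq genes (GRCm38.p6). Probe sets whose highest group mean over the 8 SV40 MEF groups lay below the 40th percentile of those means (3.63, log2) were left out, and the one with the highest mean stood for its gene.

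All 24 SV40 MEF arrays entered 1 model, a mean for every group without covariates, in limma 3.58.1 (functions lmFit and eBayes) under R 4.3.3 with the package data.table, version 1.17.8. Adjusted p-values, computed here from the deposited intensities, are two-sided, by the Benjamini-Hochberg method over all genes tested, and for Hmgn genes and other single probe sets over all probe sets that pass the filter. The fit was tested on simulated data. The members, the 18 gene lists and the 9 marker lists were chosen with earlier results of these data known. Named in the text are the Hmgn genes, then 12 genes with the largest positive and 12 with the largest negative difference that were called and did not overlap, and up to 4 called members per role of the matrix, contractile, Id and BMP, and cell cycle lists or per other list, with all 4 Id genes. Where a list had no called member, its member with the highest level was taken. Genes outside this rule are also named, for other probe sets, for promoter matches, as markers, or as genes chosen after their values were seen. The lists were described by counts and medians, with no set test. The alternatives were no filter, a filter at the 60th percentile, quantile normalization again, the 6 compared arrays alone, a replicate block, the Actb measure as a covariate, the mean of a gene's probe sets, and each replicate left out. The plots used Python 3.11.15, pandas 2.3.3 and matplotlib 3.10.9.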

Additional observations from a re-analysis of the deposited data

How the results depend on the processing

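The counts of genes called, of matrix and contractile genes higher, and of Id, replication and mitosis genes lower kept within 1.5 times their values under all 13 alternatives. The genes called numbered 5263 to 5674 under the alternatives that keep all 6 arrays and 4809 to 5143 without 1 replicate. Matrix genes higher numbered 40 to 41 and 38 to 42, contractile genes higher 23 to 28 and 22 to 24, replication genes lower 15 to 17 and 14 to 17, and mitosis genes lower 16 to 19 and 15 to 19. All 4 Id genes were lower throughout. Equal replicate numbers did not pair the samples (correlations of deviations 0.01, -0.09 and 0.08), and with the replicate number as a block 5467 genes were called, 5402 of them shared in the same direction. Of 153 named genes, 20 changed side of the threshold or sign under some alternative, and each sign change was of a gene that was not called, except Mycn. Its difference became 0.013 with the mean of its probe sets. Hmgn1 became -0.015 after quantile normalization again and with the Actb covariate, and ran from -0.040 to 0.034 without 1 replicate. Hmgn5 became -0.0030 with the Actb covariate and ran from -0.035 to 0.12 without 1 replicate. The skeletal muscle gene Ckm became 0.054 with the mean of probe sets and ran from -0.14 to 0.034 without 1 replicate. The causes were not tested. Interferon genes higher with HMGN2 numbered 1 to 5 with all 6 arrays and 1 to 7 without 1 replicate, so that count is weakly held. The deposited values carry no measure of signal over background for each array, so the filter level stands in for it.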

Other observations

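A stretch of neighbouring genes on the X chromosome, chosen after its values were seen, held large differences in the direct comparison. Of 9 tested genes of the Armcx family and their neighbours, 5 were higher with HMGN2 and 2 lower, with a median of 0.81. The shares over all genes were 14.9% and 26.2%. Armcx3, a mitochondrial outer membrane protein, read 7.33, 7.44 and 7.47 with HMGN2, 3.88, 3.94 and 3.85 with HMGN1 and 5.67, 5.60 and 5.83 with vector (3.52 ± 0.07, adjusted p = 2.17e-19), and its other probe set was called the same way. The vector lay between both pools. Armcx2 and Armcx4 were 3.43 and 0.94 higher, Armcx5 and Gprasp1 were lower (-0.34 and -0.27), and Armcx6 and Zmat1 were not called.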
